A study of Mus musculus with 9 samples.

Results

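A set of 9 genes of the Notch pathway is described in a mouse salivary gland epithelial line and in an oral keratinocyte line. They are the receptors *Notch1*, *Notch2* and *Notch3*, the ligands *Jag1*, *Jag2* and *Dll1*, and the target genes *Hes1*, *Hey1* and *Heyl*. They were taken by name and make up 9 of the 23366 gene entries counted. Notch receptors sit in the cell membrane and bind Jagged and Delta-like ligands on neighbouring cells. Binding leads to cleavage of the receptor by an ADAM protease and then by gamma-secretase, and the freed intracellular part joins RBPJ and Mastermind-like proteins in the nucleus, where it switches on genes such as those of the HES and HEY repressors. In stratified epithelia the pathway is known for its part in moving cells out of the basal layer, and in glands for balancing progenitors and differentiated cells.

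RNA-seq was done on 6 libraries of mSGc, a spontaneously immortalized epithelial line from the submandibular gland of adult C57BL/6 mice (12 weeks of age), and on 3 replicate libraries of IMOK, oral keratinocytes from C57BL/6 mice of the same age that also became immortal on their own. The mSGc monolayers were taken in serum-free medium (SFM) at passages 2, 4, 10 and 25, written P2 to P25, and in serum-containing medium (SCM) at P10 and P25, with 1 library per condition. The deposited labels call these media Progenitor and Differentiating, and the names were taken as SFM and SCM. Both were based on DMEM and Ham's F12 with insulin and human epidermal growth factor. SFM also held human fibroblast growth factor, dexamethasone, N2 supplement and the antibiotics streptomycin and penicillin. SCM held fetal bovine serum, hydrocortisone, retinoic acid, triiodothyronine, transferrin, sodium selenite, glutamax and normocin. IMOK cells were labelled early passage and grown in a medium whose composition is not given. Each line stands for 1 immortalization, so line, medium and experiment cannot be told apart in any comparison of mSGc with IMOK, and p-values measure the spread between these libraries only.

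The deposited tables give the number of reads counted on each gene. Totals were 10879981 at P2, 17089965 at P4, 8891878 at P10 and 15438288 at P25 in SFM, 13186820 at P10 and 6237884 at P25 in SCM, and 18444963, 18073866 and 16848411 in IMOK replicates 1, 2 and 3. Levels are given as TPM, which divides counts by gene length and scales each library to the same total. Differences are given as log2 fold changes with the standard error (SE). Unless another method is named, edgeR fitted them to counts with its own scaling between libraries. They can therefore differ from a ratio of mean TPM in size and, near 0, in sign. A gene is called when its p in edgeR's quasi-likelihood test, adjusted over all genes tested by the method of Benjamini and Hochberg, was under 0.05.

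Both lines carried epithelial markers. All 7 genes of that list were detected, led by *Krt5* (2559 to 9386 TPM in mSGc, 4284 to 5150 in IMOK). *Cdh1* and *Krt14* were called higher in mSGc (2 of 7, beside 6.58% of all genes tested) and none lower. Of the 7, 5 had a positive log2 fold change. *Epcam* (-0.62, SE 0.22) and *Trp63* (-0.44, SE 0.38) had negative ones and were not called. For *Epcam* each mSGc library (307 to 692 TPM) lay below each IMOK library (777 to 852), as did those of 17.0% of all genes tested. Of the acinar markers, *Aqp5*, the water channel of the acinar cell surface, stood at 1.40 to 20.9 TPM in mSGc and 73.0 to 213 in IMOK and was called lower in mSGc, the 1 call among the 3 tested. *Bhlha15*, a transcription factor of secretory cells, did not pass 0.478 TPM in any library, and the amylase gene *Amy1* reached 3.38 TPM in mSGc and 24.9 in IMOK. *Slc12a2*, an ion transporter gene of acinar cells, was present in all libraries (11.7 to 64.6 TPM in mSGc, 43.2 to 51.4 in IMOK) and was not called. So none of the acinar markers tested was called higher in mSGc than in the oral line. Of the 4 oral keratinocyte markers, *Krt4* and *Krt16* were called higher in mSGc (2 of 4, beside 6.58% of all genes tested) and none lower. *Krt4* was high in SCM only, with 88.3 and 94.8 TPM at P10 and P25. In SFM it stood at 3.10, 8.51, 0.204 and 0.386 TPM at P2, P4, P10 and P25, and in IMOK at 0 to 0.165. *Krt6a* was the most abundant of the 4 (724 to 2307 TPM in mSGc, 581 to 1111 in IMOK). *Sprr1b* led the spinous and cornified list (41.6 to 229 TPM in mSGc, 0 to 27.0 in IMOK). *Krt1* had 0 counts in IMOK and at most 0.260 TPM in mSGc. Of the 5 genes tested edgeR called 0, with 3 at an unadjusted p under 0.05. These 3 differed in direction. *Sprr1b* and *Dsc1* were higher in mSGc and *Krt10* was lower (2.59 to 6.04 TPM, against 7.75 to 8.35 in IMOK).

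Endothelial markers were close to absent, with a summed level of 1.18 TPM or less in each library, *Pecam1* as the most abundant gene, 0 counts of *Tie1*, *Cldn5* and *Emcn* in IMOK, and 0 of 7 genes reaching 1 TPM. Only 1 of them had enough counts to be tested between the lines. It was not called by edgeR's quasi-likelihood test and had an unadjusted p above 0.05. Fibroblast markers summed to 22.6 TPM at P2 and to 6.41 or less elsewhere, with *Col1a1* on top and 0 counts of *Lum* in IMOK, and edgeR called 0 of the 4 tested, with 1 at an unadjusted p under 0.05. The smooth muscle and pericyte list summed to 571 TPM at P2, 108 at P4, 8.13 at P10 and 48.2 at P25 in SFM, 73.0 and 5.31 at P10 and P25 in SCM, and 883, 7.40 and 14.2 in the IMOK replicates. Nearly all of it was the actin gene *Acta2*, which is also a marker of the myoepithelial cells of salivary glands (544 TPM at P2, 880 in IMOK replicate 1), while the pericyte genes *Rgs5* and *Pdgfrb* stayed at or under 0.731 and 0.489 TPM and the smooth muscle myosin gene *Myh11* reached 3.31 TPM at P2 and 0.202 at most in the other libraries. Between the lines edgeR tested 2 genes of this list and called 0, with 0 at an unadjusted p under 0.05, and with passage it called *Cnn1* lower. Among leukocyte markers *Cd3e* had 0 counts in all 9 libraries and *Cd68*, a lysosomal gene of macrophages, was on top at 33.4, 8.74 and 4.58 TPM in IMOK replicates 1, 2 and 3 and at most 4.10 in mSGc. It was called lower in mSGc. Calls of marker genes between the lines rest on all 9 libraries and the call of *Cnn1* with passage on the 6 mSGc libraries. These calls were not repeated with a library left out. Marker genes named here beyond the most abundant of each list and those at 0 were chosen after their values were seen, as were *Notch4*, *Dll3*, *Dll4* and *Hes5* below.

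IMOK replicate 1 stood apart from the other IMOK libraries. Across 10189 genes with a mean of at least 5 TPM, log2(TPM + 1) of replicates 2 and 3 correlated at r = 0.986, and replicate 1 correlated with them at r = 0.885 and 0.862 (a description across genes, which are not independent replicates). Test results of the 9 genes against IMOK are therefore given with and without it, and levels and shares are given for each library or as ranges that include it. The lines also differed in sex-linked transcripts, which were looked at after their values were seen. *Xist*, made from the inactive X chromosome, was called lower in mSGc (adjusted p = 1.20e-05 in edgeR) and the Y-linked *Ddx3y* higher (4.14e-05). The gland came from male mice, and no sex is given for the mice of the oral keratinocytes.

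**Figure D1:**
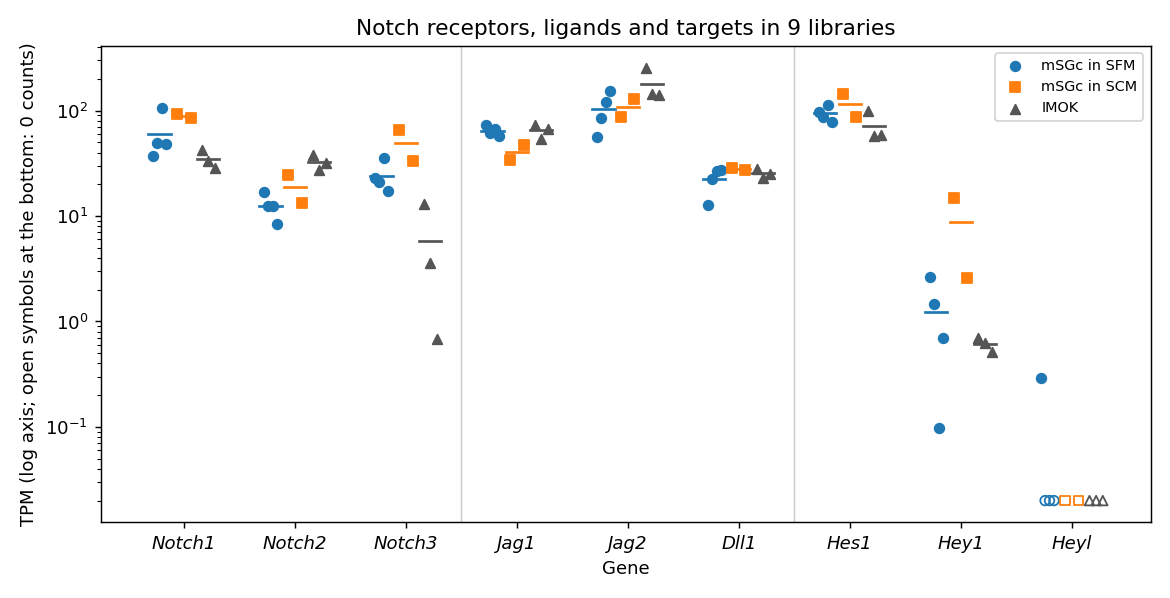
Levels of the 9 genes in TPM (log axis) in each library: circles are mSGc in SFM, squares mSGc in SCM and triangles IMOK, and the bars are group means where no library is at 0. *Notch3* is higher in each mSGc library (17.1 to 65.4 TPM) than in each IMOK library (0.675 to 13.0), *Notch2* is lower (8.43 to 24.4 against 27.2 to 38.0), and *Heyl* has counts at P2 only.

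Comparing all mSGc with all IMOK libraries asks how the salivary line differs from a keratinocyte line of the mouth. Of the 9 genes, 8 passed the filter on low counts (*Heyl* did not), and 4 of these 8 were called, beside 14.9% of the 12885 genes tested. *Notch1*, *Notch3* and *Hes1* were higher in mSGc (3 of 8, beside 6.58% of all genes) and *Notch2* was lower (1 of 8, beside 8.3%). The median log2 fold change was 0.44 over the 8 genes and 0.00 over all genes tested. Leaving out a library moved these counts. Of the 8 genes, 3 were called without P2 or P25 in SFM (1752 and 1686 over all genes, in place of 1918), and 2 without P10 in SFM or IMOK replicate 1 (1708 and 1918). Without P4, P10 in SCM or P25 in SCM 1 was called (1360, 1577 and 1654 over all genes), and without IMOK replicate 2 or 3 it was 0 (738 and 943). In bulk RNA, fewer cells that express a gene and less RNA per cell cannot be told apart.

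*Notch1*, the main receptor of basal and suprabasal keratinocytes, was the most abundant receptor gene in all mSGc libraries. It stood at 37.2, 49.5, 105 and 48.0 TPM at P2, P4, P10 and P25 in SFM, at 93.3 and 85.2 at P10 and P25 in SCM, and at 42.4, 33.1 and 28.8 in IMOK replicates 1, 2 and 3. The lines overlapped, since P2 fell below IMOK replicate 1, and the highest levels were those of P10 and of SCM. The mean was 69.7 ± 28.2 TPM (SD, n = 6) in mSGc and 34.8 ± 6.91 (SD, n = 3) in IMOK. The log2 fold change fitted to the counts was 1.22 (SE 0.33, 2.33-fold) with an adjusted p of 0.0350 in edgeR's quasi-likelihood test. The call was lost on leaving out P10 in SCM (adjusted p = 0.0595), P25 in SCM (0.0579) or IMOK replicate 1 (0.0584, log2 fold change 1.32), 2 (0.129) or 3 (0.123) in the same edgeR test, with log2 fold changes of 1.07 to 1.36 over the 9 leave-outs. It was also lost in edgeR with library size in place of TMM scaling (adjusted p = 0.0527) and with the SFM libraries of mSGc only (log2 fold change 1.06, adjusted p = 0.102). Over all 15 alternatives the direction held and the adjusted p ran from 0.00183 to 0.129.

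*Notch2*, a widely expressed paralog, was lower in mSGc. Its levels were 16.8, 12.5, 12.4 and 8.43 TPM at P2, P4, P10 and P25 in SFM, then 24.4 and 13.3 at P10 and P25 in SCM, and 38.0, 27.2 and 31.8 in the IMOK replicates. Each mSGc library lay below each IMOK library, as did those of 17.0% of all genes tested, and P10 in SCM came closest. The means were 14.7 ± 5.48 TPM (SD, n = 6) in mSGc and 32.3 ± 5.44 (SD, n = 3) in IMOK. The log2 fold change fitted to the counts was -0.95 (SE 0.23) with an adjusted p of 0.0206 in edgeR's quasi-likelihood test. Leaving out P4 (adjusted p = 0.0506) or IMOK replicate 1 (0.0509, log2 fold change -0.89), 2 (0.0512) or 3 (0.0716) put it just past the threshold in the same edgeR test. The log2 fold change fell between -1.11 and -0.85, and the adjusted p between 0.00381 and 0.0716, over all 15 alternatives.

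*Notch3*, best known as the receptor of vascular smooth muscle cells and pericytes and also expressed in suprabasal epithelium, had the largest log2 fold change of the 4 genes called. It was measured at 23.2, 21.2, 35.2 and 17.1 TPM at P2, P4, P10 and P25 in SFM, at 65.4 and 33.1 at P10 and P25 in SCM, and at 13.0, 3.56 and 0.675 in IMOK replicates 1, 2 and 3. Each mSGc library was above each IMOK library, which held for 5.22% of all genes tested, but the IMOK replicates differed among themselves by 19.2-fold (878, 244 and 43 counts). The log2 fold change was 2.76 (SE 0.75, 6.77-fold) with an adjusted p of 0.0350 in edgeR's quasi-likelihood test. Without IMOK replicate 1 it was 4.07 (SE 0.73, adjusted p = 0.00901 in the same edgeR test). The call was lost without P4 (0.0549), P10 in SFM (0.0555), P10 in SCM (0.0552), P25 in SCM (0.0533), IMOK replicate 2 (0.140) or IMOK replicate 3 (0.0508), all adjusted p-values of that edgeR test, and with the SFM libraries of mSGc only (log2 fold change 2.40, adjusted p = 0.0921). Its direction was the same under all 15 alternatives, with adjusted p-values of 0.000153 to 0.140.

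Smooth muscle and pericyte markers were measured beside *Notch3*. Their summed level was highest in IMOK replicate 1 (883 TPM), the IMOK library with the most *Notch3*. Within mSGc it was highest at P2 (571 TPM), where *Notch3* stood at 23.2 TPM, and it was 73.0 TPM at P10 in SCM, where *Notch3* was highest. The pericyte gene *Rgs5* had 0 counts in 6 of 9 libraries, where a count of 0 allows up to 0.528 TPM (P25 in SCM). It had 7 counts at P2 and 1 each at P4 and in IMOK replicate 1. *Pdgfrb* was highest at P2 and in IMOK replicate 1, with 14 counts in each. The part of smooth muscle cells and pericytes in the *Notch3* levels was not tested. *Notch4*, the endothelial receptor, did not pass 0.887 TPM in any library and was not called (log2 fold change 0.35, SE 1.00).

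Receptor composition followed from these levels. *Notch1* held 47.7% to 68.7% of the summed receptor TPM in mSGc and 45.2% to 51.7% in IMOK. *Notch2* held 8.13% to 21.5% in mSGc and 40.5% to 51.8% in IMOK, and *Notch3* 23.0% to 35.7% and 1.10% to 13.8%. The shares of *Notch2* and of *Notch3* did not overlap between the lines and those of *Notch1* did. The ratio of *Notch1* to *Notch2* was 2.21 at P2 and 8.45 at P10 in SFM, its lowest and highest values in mSGc, and 0.908 to 1.22 in IMOK.

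**Figure D2:**
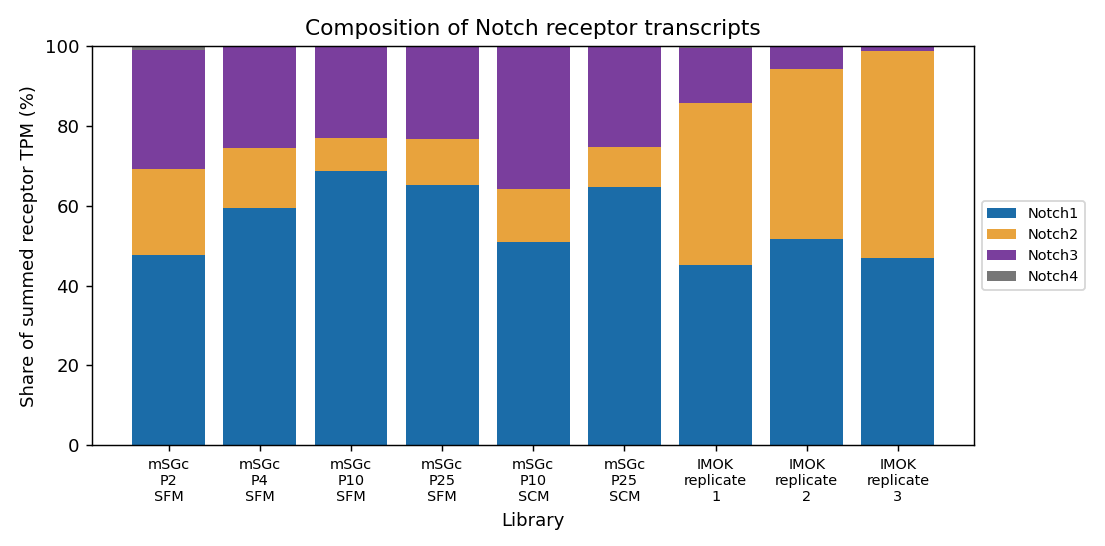
Share of each receptor gene in the summed TPM of *Notch1* to *Notch4* (%, bars from 0 to 100) in each of the 9 libraries. *Notch2* takes 40.5% to 51.8% of the bar in IMOK and 8.13% to 21.5% in mSGc, and *Notch3* takes at least 23.0% in mSGc and at most 13.8% in IMOK.

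None of the 3 ligands of the 9 genes was called between the lines by edgeR's quasi-likelihood test, and 0 of the 3 had an unadjusted p under 0.05 in it, while DESeq2 and voom also called 0. *Jag1* stood at 73.0, 61.0, 66.4 and 57.1 TPM at P2, P4, P10 and P25 in SFM, then 33.7 and 47.5 at P10 and P25 in SCM, and 73.1, 54.1 and 67.5 in IMOK. The lines overlapped and the SCM libraries were the lowest of all 9. Mean TPM was lower in mSGc (56.4, against 64.9 in IMOK), while the fitted log2 fold change was 0.03 (SE 0.25), and 0.06 without IMOK replicate 1. Its sign turned under 7 of 15 alternatives, among them scaling by library size without the TMM factors edgeR uses to balance libraries. That scaling moved the median of all genes by -0.11, and relative to the median *Jag1* was at 0.03 with TMM and 0.02 without.

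*Jag2*, which shares the Jagged structure, was the most abundant ligand gene by mean level over the 9 libraries. Its levels were 56.1, 84.4, 120 and 153 TPM at P2, P4, P10 and P25 in SFM, then 87.4 and 128 at P10 and P25 in SCM, and 256, 143 and 139 in IMOK. Only P25 in SFM reached into the IMOK range, and IMOK replicate 1 lay far above the rest. The difference was within the spread between libraries (log2 fold change -0.50, SE 0.34, adjusted p = 0.356 in edgeR's quasi-likelihood test). Without IMOK replicate 1 the log2 fold change was -0.24 (adjusted p = 0.709 in edgeR, with 0.161 to 0.709 over all 15 alternatives).

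*Dll1*, a Delta-like ligand, had the lowest level of the 3. It measured 12.7, 22.4, 26.5 and 27.3 TPM at P2, P4, P10 and P25 in SFM, then 28.6 and 27.6 at P10 and P25 in SCM, and 28.1, 23.1 and 25.2 in IMOK. P2 was the lowest library of all 9, and the other mSGc libraries lay within or next to the IMOK range (log2 fold change 0.16, SE 0.27, adjusted p = 0.739 in edgeR's quasi-likelihood test). Without IMOK replicate 1 the log2 fold change was 0.17. In TPM the mean was slightly lower in mSGc (24.2, against 25.5 in IMOK), the other way from the fitted value. *Dll3* and *Dll4* did not pass 0.201 and 0.476 TPM. The summed ligand TPM was 0.817 to 3.23 times the summed receptor TPM in mSGc and 3.43 to 3.81 times in IMOK, with the lowest ratio at P10 in SCM and the highest mSGc ratio at P25 in SFM.

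Among the target genes, *Hes1*, a basic helix-loop-helix repressor and the best known direct target of Notch, was the most abundant. It stood at 98.1, 86.5, 114 and 77.8 TPM at P2, P4, P10 and P25 in SFM, then 144 and 86.0 at P10 and P25 in SCM, and 99.96, 56.9 and 58.7 in IMOK replicates 1, 2 and 3. The lines overlapped through IMOK replicate 1, which exceeded 4 of the 6 mSGc libraries, while replicates 2 and 3 lay under all of them. The means were 101 ± 24.4 TPM (SD, n = 6) in mSGc and 71.9 ± 24.4 (SD, n = 3) in IMOK. The log2 fold change fitted to the counts was 0.71 (SE 0.21, 1.64-fold) with an adjusted p of 0.0429 in edgeR's quasi-likelihood test. Without IMOK replicate 1 the log2 fold change was 0.94 (SE 0.20, adjusted p = 0.0173 in the same edgeR test). This was the only leave-out that kept the call, which was lost without P2 (adjusted p = 0.0544), P4 (0.0723), P10 in SFM (0.0747), P25 in SFM (0.0562), P10 in SCM (0.0691), P25 in SCM (0.0518), IMOK replicate 2 (0.190) or IMOK replicate 3 (0.152) in that edgeR test. It was also lost in edgeR with library size in place of TMM scaling (adjusted p = 0.113), with at least 10 counts in every library (0.0633) and with the SFM libraries of mSGc only (0.0951), and the range over all 15 alternatives was 0.0105 to 0.190, with the direction kept.

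*Hey1*, a related repressor, rested on few counts, with 31, 29, 1 and 13 at P2, P4, P10 and P25 in SFM, then 206 and 18 at P10 and P25 in SCM, and 13, 12 and 9 in IMOK. As TPM these are 2.66, 1.47, 0.0986 and 0.694 in SFM, 14.8 and 2.60 in SCM, and 0.692, 0.631 and 0.509 in IMOK. P10 in SCM was the highest library and P10 in SFM the lowest, so the same passage held both ends of the range. Between the lines the log2 fold change was 2.71 (SE 1.18) with an adjusted p of 0.152 in edgeR's quasi-likelihood test. DESeq2 called it (adjusted p = 0.0427), and over 14 alternatives the adjusted p ran to 0.400. Without IMOK replicate 1 the log2 fold change was 2.74 (adjusted p = 0.237 in edgeR). With the SFM libraries of mSGc only, the log2 fold change was 1.24 (adjusted p = 0.378 in edgeR), and without P10 in SCM the adjusted p was 0.262 in edgeR.

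*Heyl*, also of the HEY family and a gene known from vascular smooth muscle, had 7 counts at P2 (0.292 TPM) and 0 in the other 8 libraries, where the limit of 3 counts that a count of 0 allows is 0.0737 to 0.211 TPM. P2 was also the mSGc library with the highest fibroblast sum (22.6 TPM) and the highest smooth muscle and pericyte sum (571 TPM, top gene *Acta2*, which myoepithelial cells also express). IMOK replicate 1, with a sum of 883 TPM, had 0 counts of *Heyl*. Whether other cells contributed these counts was not tested. Such a limit holds the error of counting and no other.

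The study chose P10 for setting mSGc against IMOK, which it describes as of the same passage number. Here the 2 P10 libraries, 1 in SFM and 1 in SCM, were compared with the 3 IMOK libraries alone, which is not the fit the study made. It shares all of its libraries with the comparison above, so the values are given side by side and neither adds to the other. Of the 8 genes tested 1 was called, beside 4.2% of 13018 genes. *Notch1* had a log2 fold change of 1.70 (SE 0.22, adjusted p = 0.0247 in edgeR's quasi-likelihood test), next to 1.22 with all mSGc. *Notch3* (3.38, SE 1.00), *Hes1* (1.03, SE 0.25), *Hey1* (3.71, SE 1.47) and *Notch2* (-0.65, SE 0.30) had adjusted p-values of 0.114, 0.0785, 0.193 and 0.246 in that edgeR test, next to log2 fold changes of 2.76, 0.71, 2.71 and -0.95 with all mSGc. The ligands *Jag1*, *Jag2* and *Dll1* were at -0.18, -0.58 and 0.28.

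The P10 result differed without IMOK replicate 1. Then 3 of 7 genes were called, beside 3416 of 12602 over all genes, namely *Notch1* (log2 fold change 1.79, adjusted p = 0.00858), *Notch3* (4.66, 0.0171) and *Hes1* (1.25, 0.0114), all in edgeR's quasi-likelihood test. *Notch2*, *Jag1*, *Jag2* and *Dll1* were then at -0.60, -0.16, -0.33 and 0.29, and *Hey1* did not pass the filter. Without P10 in SFM, P10 in SCM, IMOK replicate 2 or IMOK replicate 3 none of the 9 genes was called, and *Notch1* had adjusted p-values of 0.106, 0.104, 0.152 and 0.111 in the same edgeR test, while with all 5 libraries DESeq2 called 3 of the 8 (2231 of all genes) and edgeR had 4 at an unadjusted p under 0.05 (3244 of all genes). Over its 10 alternatives the adjusted p of *Notch1* ran from 1.36e-10 (DESeq2) to 0.152, that of *Notch3* from 0.00310 to 0.347 and that of *Hes1* from 0.0114 to 0.316. The count over all genes was 547, and it was 0 without either P10 library and 3416, 36 and 69 without IMOK replicates 1, 2 and 3. *Hey1* changed sign without P10 in SCM (log2 fold change -2.31). Leaving out either P10 library leaves a lone mSGc library, which is then assumed to vary as the IMOK libraries do.

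Within mSGc, medium and passage were fitted together over the 6 libraries to ask how the genes differ with serum-containing medium and with time in culture. For medium, 0 of the 8 genes tested were called by edgeR's quasi-likelihood test, beside 0.0241% of 12451 genes (3 genes in all), while 4 of the 8 had an unadjusted p under 0.05, beside 1018 of the 12451, and DESeq2 called 1 of the 8 and 272 of all genes. The 4 were *Hey1* (log2 fold change 3.50, SE 0.87), *Notch2* (0.74, SE 0.23), *Notch3* (0.96, SE 0.36) and *Jag1* (-0.81, SE 0.28), and their adjusted p-values in the edgeR test were 0.271, 0.388, 0.532 and 0.468. The count over all genes was 58 without P10 in SFM, 12 without P25 in SCM and 0 without any of the other libraries.

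Values at matched passage were paired in the same way for each of these genes. *Notch3* in SCM was 1.86 times its level in SFM at P10 and 1.94 times at P25. *Notch2* was 1.96 and 1.57 times as high, and *Jag1* stood at 0.507 and 0.832 of its SFM level. Both passages therefore had more *Notch2* and *Notch3* and less *Jag1* transcript in SCM, in 1 library per condition. *Jag2* was also lower in SCM at both passages (ratios of 0.731 and 0.835), and *Hes1* slightly higher (1.27 and 1.10). *Notch1* differed in direction (0.887 at P10 and 1.78 at P25), and *Dll1* was nearly level (1.08 and 1.01).

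*Hey1* had the widest gap between media. At P10 the ratio of SCM to SFM was 150, with a 95% counting interval of 26.6 to 5940 (exact Clopper-Pearson on 206 and 1 counts), and at P25 it was 3.75 (interval 1.74 to 8.32 on 18 and 13 counts). DESeq2 called *Hey1* for medium (adjusted p = 0.0297), and no other alternative did, with adjusted p-values of up to 1.00. Without P10 in SCM the log2 fold change was 2.33, and without P25 in SFM it was 5.94.

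For passage, 0 of the 8 genes tested were called by edgeR's quasi-likelihood test, beside 0.49% of the 12451 genes, while 3 of the 8 had an unadjusted p under 0.05, beside 1648 of the 12451, and DESeq2 called 1 of the 8 and 700 of all genes. *Jag2* had the smallest adjusted p of the 8 genes, with a log2 difference of 0.45 per doubling of the passage number (SE 0.08, adjusted p = 0.0781 in edgeR). Its level in SFM was higher at each later passage and 2.73 times as high at P25 as at P2, and in SCM P25 was 1.46 times P10. The adjusted p was 1.41e-05 in DESeq2, 0.0381 in edgeR without P10 in SFM and 0.702 in edgeR without P2, the lowest and highest of its alternatives being that of DESeq2 and that without P2. *Dll1* (0.29 per doubling, SE 0.11) and *Notch2* (-0.23, SE 0.08) were the other genes with an unadjusted p under 0.05, and their adjusted p-values in edgeR were 0.319 and 0.317. Over all genes, 61 were called for passage, and 0 without P2 or P25 in SFM, 2 without P4, 329 without P10 in SFM, and 32 and 31 without P10 and P25 in SCM.

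*Dll1* at P25 in SFM was 2.16 times its P2 level and *Notch2* 0.501 of it. The P2 library alone sets much of the range of *Dll1*, since the 5 later libraries lay between 22.4 and 28.6 TPM. *Notch1*, *Notch3* and *Hes1* were highest at P10 in SFM among the SFM libraries, with P25 at 0.456, 0.487 and 0.685 of P10. In SCM, P25 was at 0.913, 0.507 and 0.598 of P10 for the same genes. The ratio of *Jag2* to *Jag1* in SFM was 0.769, 1.38, 1.80 and 2.68 at P2, P4, P10 and P25, against 2.60 and 2.69 in SCM and 2.06 to 3.50 in IMOK. In SCM both were higher at P25, *Jag1* at 1.41 and *Jag2* at 1.46 times its P10 level. P2 was the only library with more *Jag1* than *Jag2* transcript.

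**Figure D3:**
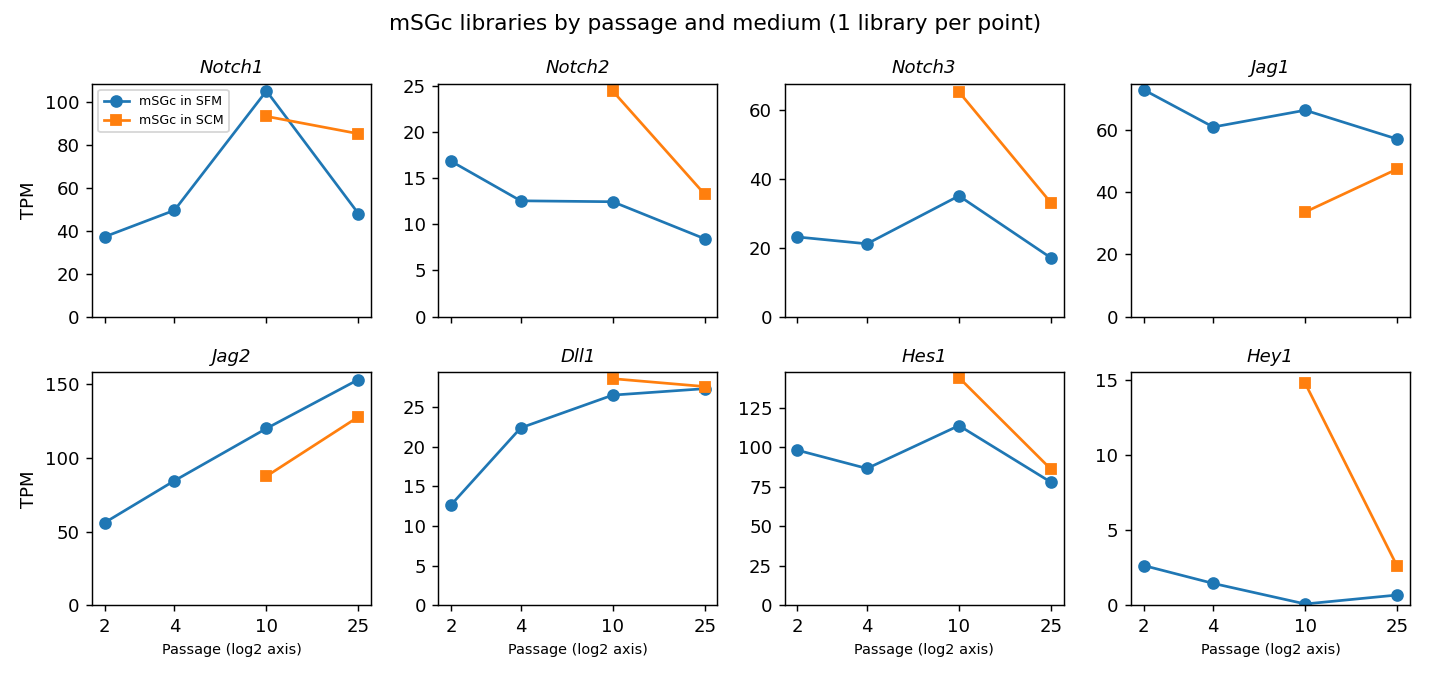
Levels (TPM, axes from 0) of 8 of the genes in the mSGc libraries against passage (log2 axis), circles for SFM and squares for SCM, 1 library per point. *Jag2* is 56.1 TPM at P2 and 153 TPM at P25 in SFM, and *Hey1* at P10 is 0.0986 TPM in SFM and 14.8 TPM in SCM.

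The other genes of the pathway were taken from lists by role, 82 genes in all. Of the 66 tested between all mSGc and IMOK, 2 were called higher and 3 lower, beside 6.58% and 8.3% of all genes, and their median log2 fold change was -0.02, beside 0.00 over all genes tested. In the P10 comparison 1 of 68 was higher and 1 lower, beside 4.2% of all genes called in either direction (median 0.03, and -0.01 over all genes). For medium and passage, 0 of 66 were called by edgeR's quasi-likelihood test, with 9 and 10 at an unadjusted p under 0.05, beside 1018 and 1648 of the 12451 genes.

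Glycosylation of the receptor tunes which ligand it answers to. *Pofut1*, which adds O-fucose to the receptor, was lower in mSGc (9.45 to 15.1 TPM, against 25.3 to 33.4 in IMOK; log2 fold change -1.01, SE 0.15, adjusted p = 0.00272 in edgeR's quasi-likelihood test) and stayed called in all 15 alternatives. At P10 it was not called (log2 fold change -0.90, adjusted p = 0.0699 in edgeR). *Lfng*, the Fringe enzyme that extends that fucose, was called lower at P10 only (14.6 and 18.1 TPM in SFM and SCM, against 74.2 to 87.2 in IMOK; log2 fold change -2.14, SE 0.24, adjusted p = 0.0169 in edgeR). That call was lost without P10 in SFM, P10 in SCM, IMOK replicate 2 or IMOK replicate 3 (adjusted p = 0.106, 0.120, 0.0894 and 0.0673 in edgeR, and as low as 2.96e-13 in DESeq2). With all mSGc, levels ran from 14.6 to 46.9 TPM and below each IMOK library, as held for 17.0% of all genes tested. *Lfng* was then not called by the main test and was called in 5 of 15 alternatives. *Furin*, the protease that matures the receptor, led this list at 49.7 to 73.3 TPM in mSGc and 70.9 to 94.2 in IMOK and was not called.

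Of the nuclear activators, *Rbpj*, the DNA-binding partner of the cleaved receptor, was lower in mSGc (16.0 to 31.2 TPM, against 37.7 to 55.7 in IMOK; log2 fold change -0.70, SE 0.19, adjusted p = 0.0326 in edgeR's quasi-likelihood test). Each mSGc library lay below each IMOK library, as did those of 17.0% of all genes tested. Its call held in 2 of 9 leave-outs, without P10 in SFM and without P10 in SCM, and was lost without P2 (adjusted p = 0.0505), P4 (0.0730), P25 in SFM (0.0563), P25 in SCM (0.0561) or IMOK replicate 1 (0.0869), 2 (0.0885) or 3 (0.0668), or with the SFM libraries of mSGc only (0.0861) in edgeR, with 0.0106 to 0.0885 over all 15 alternatives. At P10 it was not called (log2 fold change -0.38, adjusted p = 0.307 in edgeR). *Snw1* was the most abundant of that list (101 to 119 TPM in mSGc, 88.9 to 160 in IMOK). Among 14 co-repressor genes *Tle1*, of the Groucho family that HES proteins recruit, was higher in mSGc (16.0 to 19.1 TPM, against 9.27 to 10.9; log2 fold change 1.06, SE 0.18, adjusted p = 0.00510 in edgeR) and stayed called in all 15 alternatives. At P10 it was not called (log2 fold change 1.09, adjusted p = 0.0704 in edgeR). *Hdac2* had the highest level (155 to 235 TPM in mSGc, 175 to 311 in IMOK).

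Among other genes known to respond to Notch, *Cdkn1a*, the cell cycle inhibitor p21, had the largest difference. It stood at 592, 415, 389 and 207 TPM at P2, P4, P10 and P25 in SFM, then 410 and 177 at P10 and P25 in SCM, and 49.1, 46.8 and 25.1 in IMOK. Each mSGc library exceeded each IMOK library, which held for 5.22% of all genes tested. The log2 fold change was 3.39 (SE 0.41, 10.5-fold, adjusted p = 0.000915 in edgeR's quasi-likelihood test), and the gene was called in all 15 alternatives. It was also called at P10 (3.50, adjusted p = 0.0106 in edgeR) and in 7 of the 10 alternatives there, but not without P10 in SFM (0.0642), P10 in SCM (0.0783) or IMOK replicate 2 (0.0559), with a range of 6.62e-23 to 0.0783 over those alternatives. *Ccnd1* was the most abundant of these genes (204 to 687 TPM in mSGc, 397 to 464 in IMOK). *Cdkn1a* answers to several pathways, and which of them acts here was not tested.

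The lists of receptor cleavage (9 genes, top gene *Psenen*), ligand endocytosis (9, *Epn1*) and receptor turnover (11, *Nedd4*) had 0 genes called in any of the 4 comparisons by edgeR's quasi-likelihood test, with 4, 2 and 0 at an unadjusted p under 0.05 between all mSGc and IMOK, beside 3922 of 12885 over all genes. *Psenen*, a gamma-secretase subunit, stood at 90.6 to 158 TPM in mSGc and 117 to 137 in IMOK, *Epn1* at 66.1 to 82.3 and 105 to 125, and *Nedd4* at 288 to 513 and 440 to 769. Of 6 non-canonical ligand genes 1 was tested and 0 called between all mSGc and IMOK, with *Dlk2* on top (2.70 to 14.8 TPM in mSGc, 18.8 to 25.7 in IMOK).

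In the HES and HEY list of 9 genes, *Hes1* and *Hes6* accounted for nearly all transcripts. *Hes6*, named here after its values were seen, stood at 41.0 to 80.1 TPM in mSGc and at 159, 21.5 and 14.7 in IMOK replicates 1, 2 and 3, and was not called. *Hes5* had counts at P4 only (0.0875 TPM). *Hes1* made up 53.7% to 68.2% of the summed HES and HEY level in mSGc, and 38.0%, 71.2% and 78.4% in IMOK replicates 1, 2 and 3.

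The tables place the 9 genes in mm9 at chr2:26313422-26359342 (*Notch1*, minus strand), chr3:97817461-97954290 (*Notch2*, plus), chr17:32257838-32303797 (*Notch3*, minus), chr2:136907187-136942256 (*Jag1*, minus), chr12:114146801-114167706 (*Jag2*, minus), chr17:15504318-15512787 (*Dll1*, minus), chr16:30065443-30067882 (*Hes1*, plus), chr3:8663359-8667038 (*Hey1*, minus) and chr4:122910799-122927113 (*Heyl*, plus). None of their exons overlaps an exon of another entry of the tables, and counts are of reads on exons.

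RefSeq promoter sequences (table of GRCm38.p6) were found for 6 of the 9 genes, the receptors *Notch1*, *Notch2* and *Notch3* and the ligands *Jag1*, *Jag2* and *Dll1*, the last with 2 entries. *Hes1*, *Hey1* and *Heyl* are not in the table. Each sequence matched the mm9 genome at exactly 1 place. Both strands of the 250 bases before the start were searched for the RBPJ motif GTGGGAA and its core TGGGAA, which the longer one contains, for the E-box CACGTG bound by HEY and other basic helix-loop-helix factors, and for the N-box CACNAG bound by HES factors. They occur in 5.42%, 21.6%, 6.02% and 36.7% of 32851 promoters of the same length. In the 6 genes the first 3 motifs had 0 matches. The N-box occurred once each in *Notch1* and *Notch2*, 2 times in *Notch3* and not in the ligands. The receptor promoters are shown because *Notch1*, *Notch2* and *Notch3* were each called between all mSGc and IMOK and hold the N-box matches found. They are printed with N-box matches in capitals (CTNGTG on the other strand), read 5′ to 3′ on the gene's strand. They lie at chr2:26359343-26359592 (*Notch1*, minus), chr3:97817211-97817460 (*Notch2*, plus) and chr17:32303836-32304085 (*Notch3*, minus) of mm9. A match describes the letters only.
Notch1: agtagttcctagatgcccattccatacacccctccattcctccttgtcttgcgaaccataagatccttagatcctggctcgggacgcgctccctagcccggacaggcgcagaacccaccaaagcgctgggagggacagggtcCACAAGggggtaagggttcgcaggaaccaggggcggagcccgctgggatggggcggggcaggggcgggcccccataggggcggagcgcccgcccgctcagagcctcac
Notch2: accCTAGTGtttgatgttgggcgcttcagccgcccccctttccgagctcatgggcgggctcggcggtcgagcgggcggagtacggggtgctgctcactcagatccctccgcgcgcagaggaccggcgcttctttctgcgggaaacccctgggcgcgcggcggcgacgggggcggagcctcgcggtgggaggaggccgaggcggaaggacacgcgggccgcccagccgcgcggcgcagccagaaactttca
Notch3: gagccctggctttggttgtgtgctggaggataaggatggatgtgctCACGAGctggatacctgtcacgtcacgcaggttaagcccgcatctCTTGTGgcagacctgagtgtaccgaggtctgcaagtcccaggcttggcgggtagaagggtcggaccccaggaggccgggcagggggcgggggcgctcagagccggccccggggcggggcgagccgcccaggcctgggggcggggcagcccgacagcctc

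Genes whose levels most resembled a member's were sought among 10189 genes with Pearson's r over the 9 libraries, on the scale log2(TPM + 1), as a description with no test, since libraries of a line or medium are alike in many genes. *Notch1* was closest to *Chd9* (r = 0.963), *Trps1* (0.955) and *Sesn1* (0.942), whose 3 highest libraries were also P10 in SFM and both SCM libraries. *Notch2* was closest to *Ltbp1* (0.990), *Tjp1* (0.988) and *Krt10* (0.980), all lower in mSGc, with *Ltbp1* at 4.45 to 38.3 TPM in mSGc and 62.3 to 113 in IMOK. *Notch3* was closest to *Irak4* (0.984), *Csad* (0.975) and *Ephb6* (0.968), and *Ephb6* stood at 17.0, 3.58 and 1.89 TPM in IMOK replicates 1, 2 and 3 and was highest in the same library as *Notch3*, P10 in SCM (73.2 TPM).

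Of the ligands, *Jag1* was closest to *Fads3* (r = 0.940), *Aurkaip1* (0.918) and *Sra1* (0.910), *Jag2* to *Sema4a* (0.952), *Pecr* (0.943) and *Nthl1* (0.935), and *Dll1* to *Col17a1* (0.911), *Tfap4* (0.879) and *Idh3g* (0.878), each r over the 9 libraries. *Fads3*, a fatty acid desaturase gene, had its lowest levels in SCM (20.3 and 39.2 TPM at P10 and P25), as *Jag1* did. *Hes1* was closest to *Anpep* (0.986), *Ulk2* (0.964) and *Cep170b* (0.964), and *Anpep* ran from 0.0364 TPM in IMOK replicate 3 to 23.7 at P10 in SCM. *Hey1* and *Heyl* were below the mean of 5 TPM that this comparison required.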

How the data were processed

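The deposited tables hold the count of reads on each of 23366 gene entries in 9 RNA-seq libraries, made by the authors from TruSeq RNA Sample Prep Kit libraries. Per the submitters' processing notes, reads were aligned to mm9 with TopHat2 2.1.1 and Bowtie2 2.2.6 and counted with featureCounts 1.5.1, and DESeq2 1.12.4 was used on the counts. The column Length, deposited with them, is an other value, the gene length in bases. The annotation, strand and multimapping settings are not given in the sources used here. The tables hold 27 entries whose names are dates, none of them a gene of the lists, and 0 sample columns went unused.

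The 9 genes and the lists of other pathway genes and of cell type markers were chosen by name, with earlier results of these data known. The lists found 140 of 141 names (*Flg* is missing). Genes named in the text are the 9, pathway genes called (at most 5 per direction and role) or most abundant in their role, the most abundant marker of each list and markers at 0, and the 3 genes most like each of the 9 with a mean of at least 5 TPM, and any other is said to be chosen after its values were seen.

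Counts were fitted with edgeR 4.0.16 in R 4.3.3 (TMM scaling, filterByExpr, quasi-likelihood F-test, Benjamini-Hochberg adjustment, threshold 0.05). Line was fitted over all 9 libraries and over P10 and IMOK libraries, and medium together with log2 passage over the 6 mSGc libraries. The SE of a log2 fold change is its size over the square root of F. The 2 P10 libraries differ in medium and were treated as replicates. TPM came from counts and Length. The limit for a count of 0 was 3 counts (0.163 to 0.481 CPM). Ratios of low counts have exact Clopper-Pearson intervals of 95%. Upstream windows of 250 bases were taken from the RefSeq promoter table.

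The alternatives were DESeq2 1.42.0, voom of limma 3.58.1, library size without TMM, no filter (at least 1 count), at least 10 counts in every library, leaving out each library, SFM libraries only, only the P10 and P25 libraries blocked by passage, untransformed passage, and a pseudocount of 0.1 in place of 1 for likeness. The fits were tested on simulated data. Tables and figures were made with Python 3.11.15, pandas 2.3.3, numpy 2.4.6 and matplotlib 3.10.9.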

Additional observations from a re-analysis of the deposited data

Results flagged for a closer look

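In 18 groups of 4 or 6 libraries the highest and lowest values were compared with the rest, and chance alone marks about 1 in 20 such groups. *Notch3* at P10 in SCM (65.4 TPM) and *Hey1* in the same library (14.8 TPM) lay far above the other mSGc libraries. *Heyl* at P2 (0.292 TPM, 7 counts) was marked both among all 6 mSGc libraries and among the 4 in SFM. Since the other libraries had 0 counts, any count would have been marked, and the limits of those zeros reach 0.144 TPM in SFM and 0.211 TPM in SCM.

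The *Hey1* levels at P10 and P25 stood in opposite order in the 2 media. The P25 level was 7.03 times the P10 level in SFM (95% counting interval 1.06 to 299) and 0.176 times the P10 level in SCM (0.102 to 0.285). Each ratio rests on 1 library per passage, the SFM ratio on 13 and 1 counts, and the difference between the media was not tested. Over the longer SFM series P25 was at 0.261 of P2, and the slope fitted over both media was -0.67 per doubling of passage, negative in all 12 alternatives and not called by edgeR.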

How the results depend on the processing

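Of 545 values of single genes recomputed under an alternative, 522 kept their direction (285 higher and 237 lower). Of these, 447 also stayed on the same side of the threshold, 57 lost a call and 18 gained one. The other 23 turned sign. The 447 include values of genes that were not called in the main fit, so they do not measure how stable the calls were. Between all mSGc and IMOK, the calls of *Notch1*, *Notch2*, *Notch3* and *Hes1* were kept in 8, 11, 8 and 4 of 15 alternatives. Where a value moved, the cause was not tested.

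Between all mSGc and IMOK the number of genes called was 2900 with DESeq2 and 738 to 1918 on leaving out each library (943 without IMOK replicate 3). Without TMM the 2036 calls split into 663 higher and 1373 lower, against 848 and 1070. The 4 calls among the 9 genes became 2 without TMM, 1 with SFM libraries only and 0 to 3 on leaving out each library. *Jag1* turned sign without TMM (log2 fold change -0.081), with voom (-0.013) and in 5 of 9 leave-outs. The 9 leave-outs ran from -0.076 to 0.16.

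In the P10 comparison DESeq2 called 2231 genes (3 of the 9), the filter of 10 counts left 272, and leave-outs gave 0 to 3416 (0 to 3 of the 9). *Jag1* ran from -0.87 without P10 in SFM to 0.28 without P10 in SCM, and *Hey1* from 4.66 to -2.31 in the same leave-outs.

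For medium the 3 calls became 272 with DESeq2 (1 of the 9 genes), 36 with no filter, 1 with at least 10 counts, 0 with voom, 123 for P10 and P25 with passage as a block, and 0 to 58 in leave-outs. Leave-outs moved *Notch1* from -0.42 to 0.68, *Dll1* from -0.30 to 0.0039 and *Hes1* from -0.17 to 0.41.

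For passage the 61 calls became 700 with DESeq2 (1 of the 9 genes), 161 with no filter, 3 with at least 10 counts, 126 with untransformed passage, 31 with SFM libraries only, and 0 to 329 in leave-outs (0 to 1 of the 9 genes). Slopes near 0 turned sign, with *Notch3* at -0.21 to 0.10 in leave-outs and 0.019 with SFM libraries only, *Jag1* at -0.021 to 0.11 and -0.019, and *Hes1* at -0.12 to 0.013 and 0.0073.

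Of the 21 genes most like one of the 9, 17 were the same with a pseudocount of 0.1. *Hey1* has no value with at least 10 counts, and *Heyl* was tested only with no filter. No paired analysis by replicate was possible because replicate numbers do not link the lines. Depth limits *Hey1* and *Heyl* most.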
